A study of Mus musculus with 37 samples.

Results

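RNA-seq read counts were compared between uterine natural killer (uNK) cells of NKG2A knockout mice (NKG2A KO) that carried the inhibitory receptors Ly49C or Ly49I on their surface (Ly49C/I+ cells) and cells of the same genotype that carried neither these receptors nor NKG2A (called uneducated). The comparison took the 5 Ly49C/I+ libraries, numbered 4 to 8, and the 8 uneducated libraries, numbered 1 to 8, so 13 of the 37 libraries of the series. All genes were tested, and genes were then described by lists of related function. The remaining 24 libraries came from WT C57BL6 mice (9 uneducated, 9 NKG2A+ and 6 Ly49C/I+).

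Both NKG2A KO groups shared the genotype, given as NKG2A KO on C57BL6, and the tissue, the pregnant uterus at 9.5 to 10.5 days of gestation. No treatment of the animals is named for either group. The cells were sorted as live single CD45+ NKp46+ cells without CD3, CD4, CD8 or high CD11b, among other criteria, and the 2 groups differed by the Ly49C/I stain. The paper's antibody list names the stain for NKG2A as NKG2AC/E. The labels limit the knockout to no cell type, and neither they nor the methods give the age of the animals or any pooling of animals. Nothing states whether libraries with the same number came from one animal. p-values therefore measure the spread between these libraries, which may be partly technical.

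NK cells become fully responsive when their inhibitory receptors bind self MHC class I molecules, a process called education. In C57BL/6 mice Ly49C and Ly49I bind the class I molecule H-2Kb, and NKG2A, paired with CD94, binds the non-classical molecule Qa-1. In the uterus of early pregnancy NK cells are the most abundant lymphocytes, and they act on the maternal arteries that feed the placenta through granule proteins, cytokines and growth factors.

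The 13 libraries held 16582365 to 18875033 reads assigned to genes, and 14197 to 17006 genes had at least 1 read. Reads outside annotated genes made up 2.69% to 5.67% of the uneducated libraries (median 3.33%) and 3.94% to 5.26% of the Ly49C/I+ libraries (median 4.12%), and the part of this in the results was not tested. The first principal component of log2 CPM (reads of a gene scaled to a common library size, here after TMM normalisation) held 29.4% of the variance and placed the 8 uneducated libraries between -33.1 and -1.82 and the 5 Ly49C/I+ libraries between 10.8 and 64.5. Ly49C/I+ library 5 stood apart from the other 4 (64.5 on the first and 47.9 on the second component), and it had the fewest genes with a read. Uneducated libraries 1, 2 and 3, whose numbers have no Ly49C/I+ counterpart, lay at the far uneducated end (-33.1 to -24.3) and libraries 4 to 8 nearer the middle (-17.1 to -1.82). The comparison was therefore also made with the libraries numbered 4 to 8 alone, 5 against 5, and nothing in the labels names libraries 1 to 3 as a batch.

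The labels were checked first against the genes of the sort and of the knockout. Klrc1, which encodes NKG2A, was at 0.782–3.16 CPM in uneducated and 1.82–3.8 CPM in Ly49C/I+ libraries, below the filter of 5 CPM in at least 0.5 of the libraries, so it was not tested. On a scale set over all 37 libraries, Klrc1 stood at 498 to 766 CPM in the 9 WT NKG2A+ libraries, but also at only 1.26 to 13.9 CPM in the 9 WT uneducated libraries. Its level thus separates NKG2A+ cells from the rest and does not tell knockout from WT cells sorted as NKG2A negative, and 38.6% of its 50-base stretches occur in other genes. Klra9, which encodes Ly49I (chr6:130178675-130193112, minus strand, GRCm38), lay from 63.6 to 125 CPM (median 86.7) in the 8 uneducated libraries. In the Ly49C/I+ libraries 4 to 8, in that order, Klra9 was at 968, 748, 948, 1138 and 1103 CPM, so every Ly49C/I+ library stood above every uneducated one (log2 FC 3.45, SE 0.15, adjusted p = 1.99e-10). Log2 FC is the log2 fold change of Ly49C/I+ over uneducated cells. Klra9 was a gene of the gate, so its difference checks the sort and is no finding.

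Klra3, which encodes Ly49C, went the other way. Its level was 148 ± 24.9 CPM in uneducated and 95 ± 11.4 CPM in Ly49C/I+ cells, with no overlap between the groups (SD, n = 8 and 5, here and for every ± value further on unless stated; log2 FC -0.64, SE 0.12, adjusted p = 0.00291). Klra9 and Klra3 belong to one gene cluster. Of their 50-base stretches, 31.5% for Klra9 and 20.7% for Klra3 also occur in another gene. Reads from such stretches may have been left uncounted as not unique or counted for a relative, so both values are uncertain to that extent. Ncr1, which encodes the NKp46 used in the gate, stood at 734 ± 89.6 CPM in uneducated and 921 ± 107 CPM in Ly49C/I+ cells (log2 FC 0.33, adjusted p = 0.024), a call lost with the libraries numbered 4 to 8 alone (log2 FC 0.23, adjusted p = 0.156). Ptprc, which encodes CD45, rose as well (log2 FC 0.41, adjusted p = 0.00097), but with offsets for GC content and gene length its log2 FC was 0.17 (adjusted p = 0.174).

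Across the transcriptome 1519 of 9299 genes tested passed an adjusted p of 0.05 (16.3%), by edgeR's quasi-likelihood test with Benjamini-Hochberg adjustment, the test behind every adjusted p given here unless another is named. In Ly49C/I+ cells 683 genes rose (7.34%) and 836 fell (8.99%), and the median log2 fold change over all genes tested was 0.02. Changes beyond 1 on the log2 scale numbered 87 upward and 109 downward. The 2 groups of libraries did not overlap in 565 genes (6.08%), of which 537 (5.77% of those tested) also passed the test. Among the 10 libraries numbered 4 to 8, 508 of 9419 genes tested passed (203 higher, or 2.16%, and 305 lower, or 3.24%), of which 498 were among the 1519. Leaving out Ly49C/I+ library 4 gave 967 genes, the fewest of the 13 such fits, and leaving out uneducated library 4 gave 1763, the most.

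**Figure D1:**
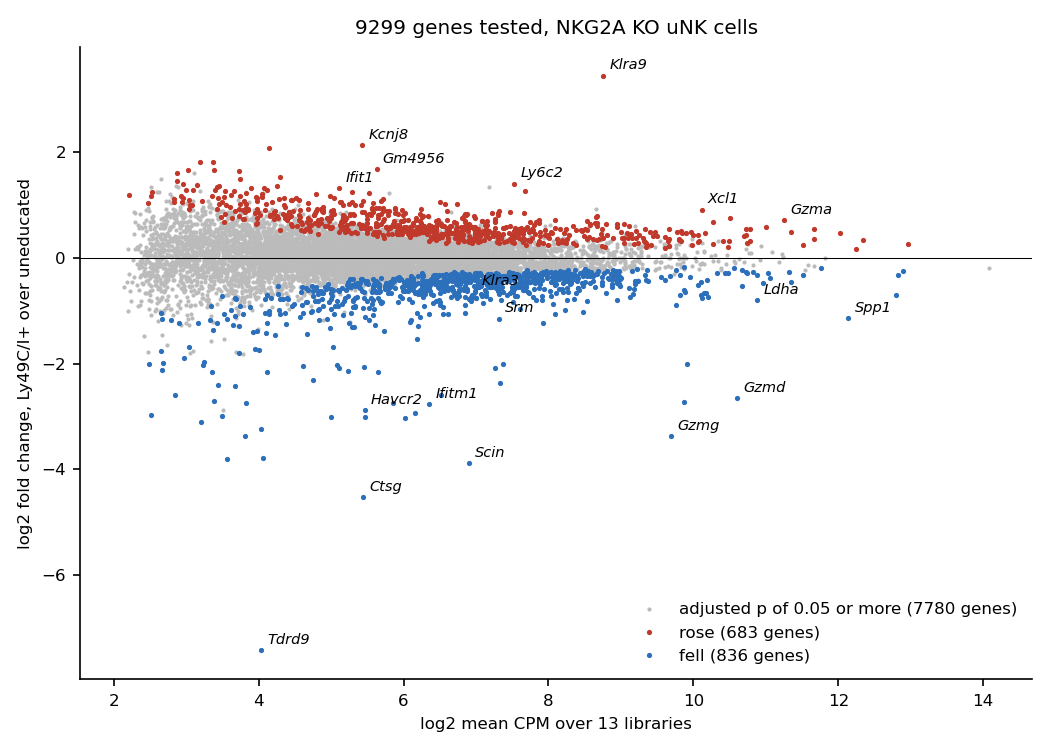
Log2 fold change of Ly49C/I+ over uneducated NKG2A KO cells (vertical) against log2 mean CPM over the 13 libraries (horizontal), 1 point per gene tested. Red points rose (683 genes), blue points fell (836) and grey points did not pass an adjusted p of 0.05, and the values run from -7.42 for Tdrd9 to 3.45 for Klra9.

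Kcnj8 showed the second largest rise after Klra9 among the genes that passed the test with no overlap between groups. It encodes Kir6.1, the pore of an ATP-sensitive potassium (K-ATP) channel that couples the metabolic state of a cell to its membrane potential (ENSMUSG00000030247, chr6:142564837-142571614, minus strand, GRCm38). The uneducated libraries lay from 8.91 to 30.8 CPM (median 18.7), and Ly49C/I+ libraries 4 to 8 stood at 95.2, 91.8, 87.8, 72 and 63.7 CPM. The lowest Ly49C/I+ library was thus above the highest uneducated library. The means were 18.6 ± 6.23 CPM in uneducated and 82.1 ± 13.6 CPM in Ly49C/I+ cells (SD, n = 8 and 5; log2 FC 2.14, SE 0.21, adjusted p = 3.06e-05). By an exact permutation test (two-sided, difference of mean log2 values with a pseudocount of 1 CPM) p was 0.000777, the smallest that these group sizes allow. With the libraries numbered 4 to 8 alone the log2 fold change was 1.91, adjusted p = 0.000192, and the exact permutation p was 0.00794. The call held in each of the 23 alternative fits, with log2 fold changes of 1.91 to 2.28.

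The bases just before the start of Kcnj8 are shown because this gene had the largest rise without overlap outside the sort genes. The 250 bases before its RefSeq start (chr6:142571615-142571864, minus strand, GRCm38.p6) read 5′ to 3′ as follows, in lower case throughout because the interferon-stimulated response element described further on is not in this window.
Kcnj8: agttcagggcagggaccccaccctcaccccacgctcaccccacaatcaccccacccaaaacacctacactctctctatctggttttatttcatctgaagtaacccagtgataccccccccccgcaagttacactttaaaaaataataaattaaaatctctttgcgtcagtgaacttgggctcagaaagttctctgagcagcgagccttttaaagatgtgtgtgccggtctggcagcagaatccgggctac

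The partners of Kir6.1 in a K-ATP channel were close to absent. Abcc9, which encodes the regulatory subunit SUR2, had no read in any of the 13 libraries. Abcc8, which encodes SUR1, had a mean of 0.00723 CPM in uneducated cells and none in Ly49C/I+ cells, and Kcnj11, which encodes the other pore subunit Kir6.2, had 0.18 CPM and none. A count of 0 allows up to 3 reads over a group. None of the 3 was tested. Kcnn4, a calcium-activated potassium channel, fell from 26.3–44 CPM to 6.44–24.5 CPM (log2 FC -0.97, adjusted p = 0.0199), although the call was lost without Ly49C/I+ library 6 (adjusted p = 0.0515) and with the libraries numbered 4 to 8 alone (adjusted p = 0.0645). The voltage-gated potassium channel gene Kcna3 (10.3 and 16.5 CPM, uneducated and Ly49C/I+, adjusted p = 0.335) and the lysosomal channel genes Mcoln1 and Mcoln2 (adjusted p = 0.481 and 0.527) did not pass. Kcnk6 (7.65 and 3.13 CPM) and Trpm2 (0.555 and 0.0117 CPM) were below the filter.

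**Figure D2:**
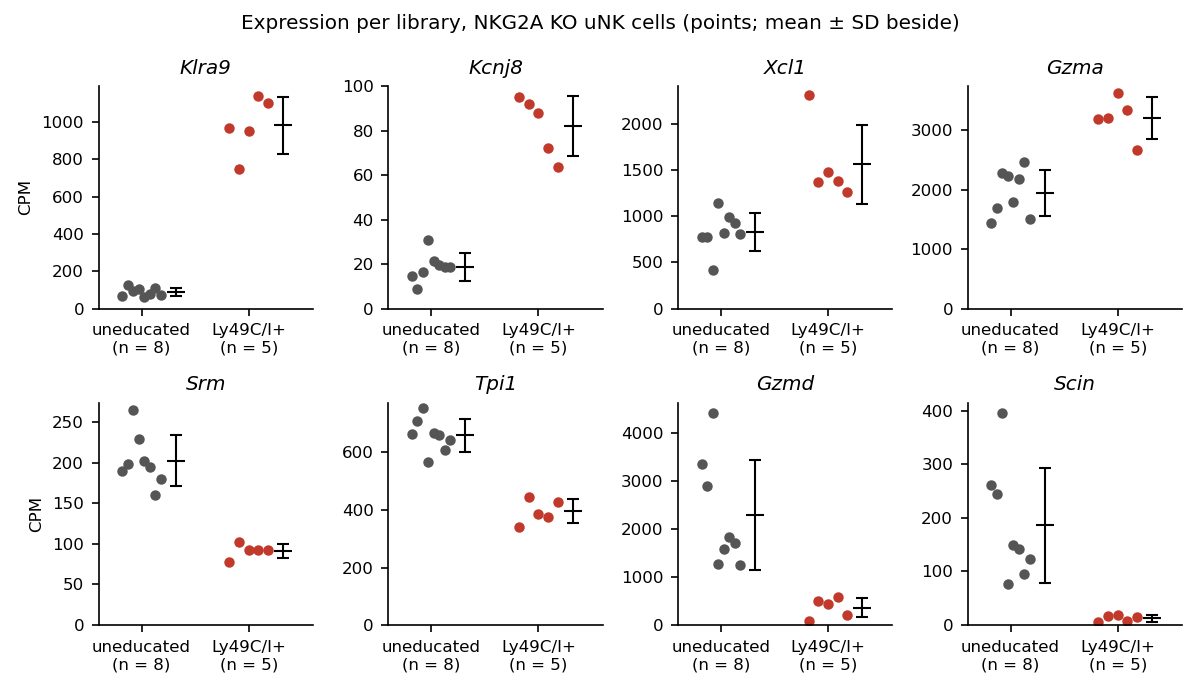
CPM of 8 genes in each NKG2A KO library, with the mean ± SD beside the points (8 uneducated libraries in grey, 5 Ly49C/I+ libraries in red). In none of the 8 genes do the groups overlap, and for Gzmd and Scin the 3 highest points are uneducated libraries 1 to 3.

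Among the other inhibitory and activating receptors, the families of the NK gene complex differed in extent. Of 9 Ly49 genes tested, 4 rose (44.4%, against a background of 7.34% over all genes tested) and 2 fell (22.2%, background 8.99%). These counts include Klra9 and Klra3, the genes of the receptors in the gate. Besides Klra9 and Klra3, Klra8, which encodes the activating receptor Ly49H, rose by 0.64 on the log2 scale (adjusted p = 0.0221) and Klra5 by 0.60 (adjusted p = 0.0378), while Klra7, which encodes Ly49G, fell by 0.39 (adjusted p = 0.00694). Of the 50-base stretches of Klra8, 33.1% occur in other genes, Klra9 among them, so its rise is uncertain to that extent. Between the libraries numbered 4 to 8 alone, 2 Ly49 genes rose, Klra9 of the gate and Klra5 (22.2%, background 2.16%), and 2 fell (22.2%, background 3.24%). Of 7 genes tested of the CD94/NKG2 and NKG2D group, 6 rose (85.7%, background 7.34%) and none fell, with a median log2 fold change of 0.49. Klrd1, which encodes CD94, the partner of NKG2A, stood at 610.1 ± 76.9 CPM in uneducated and 859.9 ± 101 CPM in Ly49C/I+ cells (log2 FC 0.50, adjusted p = 0.00288). Klrc2, which encodes the activating NKG2C, stood at 122 ± 29.3 CPM in uneducated and 203 ± 11.5 CPM in Ly49C/I+ cells (log2 FC 0.73, adjusted p = 0.00293), and 16.3% of its 50-base stretches also occur in other genes, Klrc1 among them. Because the stain is listed as NKG2AC/E, NKG2C may be a target of the negative gate in both groups. The part of this in the levels of Klrc2 was not tested. Klre1 rose by 0.49 (adjusted p = 0.00211). The count of rises in the CD94/NKG2 and NKG2D group was 3 without Ly49C/I+ library 4, and with the libraries numbered 4 to 8 alone it was 3 (42.9%, background 2.16%).

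Of 25 other NK receptor and adaptor genes, 10 rose and 2 fell. Cd226, which encodes the activating receptor DNAM-1, lay from 23.9 to 53.7 CPM (median 39.8) in uneducated and at 122, 61.1, 64.8, 62.3 and 57.5 CPM in Ly49C/I+ libraries 4 to 8 (log2 FC 0.88, SE 0.21, adjusted p = 0.00864). Library 4 was the highest of these, and no Ly49C/I+ library reached down to the uneducated range. Hcst, the gene of the NKG2D adaptor DAP10 (log2 FC 0.49, adjusted p = 0.00291), and the Klrb1 family genes Klrb1b (log2 FC 0.53, adjusted p = 0.00475) and Klrb1c, which encodes NK1.1 (log2 FC 0.51, adjusted p = 0.006), rose too. Havcr2, which encodes the inhibitory receptor Tim-3, was among the strongest falls, from 31.6–148 CPM to 0.108–18.1 CPM (log2 FC -2.88, SE 0.64, adjusted p = 0.00604). Uneducated libraries 1 to 3 held 82.4 to 148 CPM and libraries 4 to 8 31.6 to 50 CPM, and with the libraries numbered 4 to 8 alone the log2 FC was -2.19, adjusted p = 0.067. Fcgr3, which encodes the Fc receptor CD16, fell by 0.60 (adjusted p = 0.0286). Klrg1, an inhibitory receptor and maturation marker, stood at 666 and 498 CPM and did not pass (adjusted p = 0.0939). In this list 5 genes rose and none fell with the libraries numbered 4 to 8 alone.

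The granzymes divided by gene. Gzma rose, and the granzymes encoded together on chromosome 14 fell, most steeply Gzmd, Gzme, Gzmf and Gzmg. Granzymes are serine proteases of cytotoxic granules, and Gzmc to Gzmg are abundant in uNK cells. Gzma lay from 1433 to 2461 CPM (median 1983) in uneducated and at 3192, 3205, 3636, 3338 and 2664 CPM in Ly49C/I+ libraries 4 to 8, above every uneducated library (log2 FC 0.72, SE 0.12, adjusted p = 0.00114). Gzmd lay from 1253 to 4424 CPM (median 1771) in uneducated libraries and at 89.22, 492.5, 442.9, 587.5 and 214 CPM in Ly49C/I+ libraries (log2 FC -2.65, SE 0.42, adjusted p = 0.000751). Library 4 was the lowest of the Ly49C/I+ group for Gzmd, and even the highest, library 7, was below all 8 uneducated libraries. Gzmg fell furthest, from 647–2484 CPM to 6.93, 115, 107, 322 and 60.5 CPM in libraries 4 to 8 (log2 FC -3.37, SE 0.62, adjusted p = 0.00218). Its log2 fold change was -4.12 without Ly49C/I+ library 7. Gzme fell by 2.73 (adjusted p = 0.00097) and Gzmf by 2.01 (adjusted p = 0.00424), also without overlap.

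Gzmb, Gzmc and the perforin gene fell by less. Gzmb, at 7837 ± 1270.2 CPM in uneducated and 6256 ± 728 CPM in Ly49C/I+ cells, fell by 0.33 (adjusted p = 0.0426), Gzmc, at 8351 and 5121 CPM, by 0.71 (adjusted p = 0.0086), and Prf1, which encodes the pore-forming protein perforin, by 0.46 (adjusted p = 0.0302). Of 10 genes tested of this list, 1 rose and 7 fell, with a median of -0.93 against 0.02 over all genes. Uneducated libraries 1 to 3 were the 3 highest of all 13 for Gzmd (2894 to 4424 CPM, against 1253 to 1827 CPM in uneducated libraries 4 to 8). With the libraries numbered 4 to 8 alone, 4 members fell, Gzmd (log2 FC -2.07, adjusted p = 0.00658), Gzme (log2 FC -2.16, adjusted p = 0.00855), Gzmf (log2 FC -1.45, adjusted p = 0.0403) and Gzmg (log2 FC -2.70, adjusted p = 0.0202), while Gzmb (log2 FC -0.19, adjusted p = 0.226) and Gzmc (log2 FC -0.43, adjusted p = 0.0614) did not pass.

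Gzmd, Gzme, Gzmf and Gzmg are close copies of one another. Of the 50-base stretches in their transcripts, 21.9%, 20.6%, 19.4% and 19.8% occur in another gene, mostly in each other. Reads from such stretches may have been left uncounted as not unique or counted for a relative, and the part of each was not tested. The 120 bases before the RefSeq start of 3 of them (Gzmd chr14:56132594-56132713, Gzmf chr14:56211408-56211527 and Gzmg chr14:56159580-56159699, all minus strand, GRCm38.p6) are shown to let the likeness be seen, with the stretches of at least 15 bases that all 3 share in capitals. These make up 52 of the 120 bases in each.
Gzmd: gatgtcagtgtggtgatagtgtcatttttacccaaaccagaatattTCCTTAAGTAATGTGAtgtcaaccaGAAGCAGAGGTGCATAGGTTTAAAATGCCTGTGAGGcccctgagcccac
Gzmf: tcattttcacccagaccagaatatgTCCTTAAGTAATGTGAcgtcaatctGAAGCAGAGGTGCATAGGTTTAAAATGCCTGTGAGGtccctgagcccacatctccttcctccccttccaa
Gzmg: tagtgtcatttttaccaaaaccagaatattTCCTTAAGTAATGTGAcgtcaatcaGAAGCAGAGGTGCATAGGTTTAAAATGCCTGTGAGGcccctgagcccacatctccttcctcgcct

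**Figure D3:**
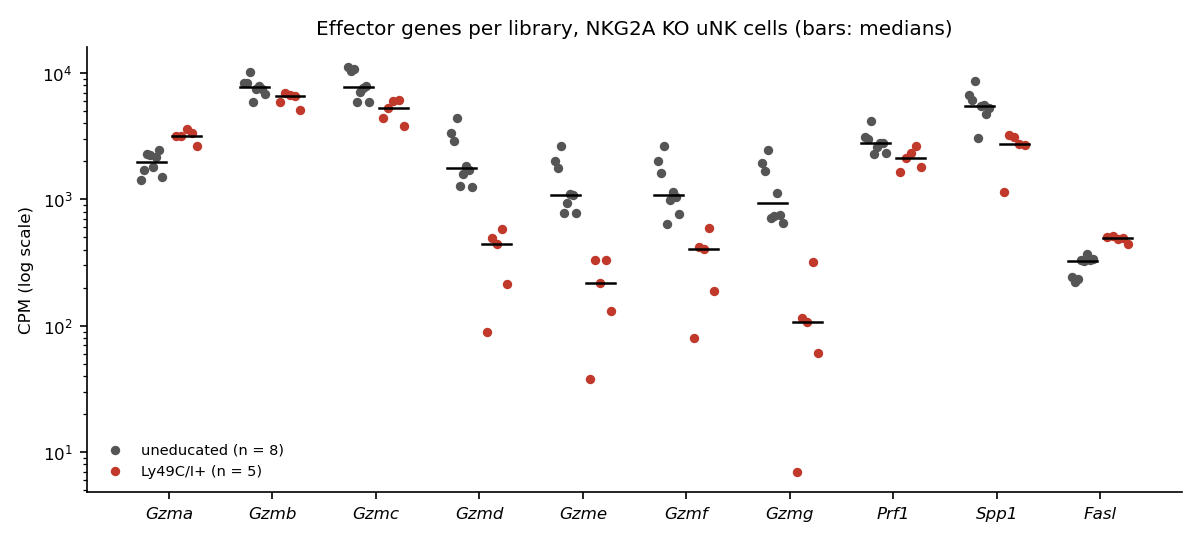
CPM on a log scale of 10 effector genes in each NKG2A KO library (grey, 8 uneducated; red, 5 Ly49C/I+; bars are medians). Gzma and Fasl are higher in every Ly49C/I+ library than in any uneducated library, and Gzmd, Gzme, Gzmf and Gzmg are lower in every one.

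A set of further genes fell steeply beside these granzymes. Tdrd9, a gene of the piRNA pathway, was at 8.22–54.9 CPM in the 8 uneducated libraries. In the Ly49C/I+ group it had 13 reads in all, every one of them in library 6 (0.76 CPM). Its fitted log2 fold change of -7.42 (adjusted p = 0.000155) rests on those reads and was -11.9 without that library. Ctsg, which encodes the protease cathepsin G, lay from 33.4 to 142 CPM (median 51.4) in uneducated and at 0, 0.0581, 3.51, 10.3 and 0.936 CPM in Ly49C/I+ libraries (log2 FC -4.53, SE 0.82, adjusted p = 0.00196). Scin, which encodes the actin-severing protein scinderin, fell from 77.5–396 CPM to 5.31, 17.6, 18.6, 6.98 and 15.1 CPM (log2 FC -3.88, SE 0.43, adjusted p = 8.53e-05). All 5 Ly49C/I+ libraries were below the lowest uneducated library in each of these genes. The other members of the 12 largest falls were the cytokine subunit gene Il23a (-3.78), the granule protease gene Mcpt8 (-3.37), the annexin gene Anxa3 (-3.24), the metallothionein gene Mt2 (-3.10), the cadherin gene Dsc2 (-3.02), the transcription repressor gene Zbtb32 (-3.00), the hypoxia-inducible factor gene Epas1 (-3.00), Gzmg and the pseudogene Gm8961 (-3.80), all as log2 fold changes. Without Ly49C/I+ library 7 the values were -5.94 for Ctsg, -5.11 for Il23a, -4.82 for Gm8961 and -3.97 for Mcpt8.

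The largest rises outside Klra9 and Kcnj8 were smaller than these falls and of mixed function. Dennd5a, which encodes a regulator of vesicle traffic, lay from 7.94 to 14.8 CPM (median 11.1) in uneducated and at 32.2, 37.4, 34, 30.3 and 30.5 CPM in Ly49C/I+ libraries 4 to 8 (log2 FC 1.53, SE 0.19, adjusted p = 0.0002). Ly6c2, a surface protein gene that rises as NK cells mature, went from 77–164 CPM to 168–404 CPM (log2 FC 1.41, adjusted p = 0.000311). Mcam, an adhesion molecule gene, rose by 1.36 (adjusted p = 0.00588), and Arhgef4, which encodes a guanine nucleotide exchange factor, by 1.29 (adjusted p = 0.00432). Groups did not overlap in any of these. The interferon-stimulated genes Ifit1 (1.33) and Ddx60 (1.32), the rhophilin gene Rhpn1 (1.49) and the uncharacterised loci Gm4956 (1.69), Gm14125 (1.66) and AI987944 (1.28) completed the 12 largest log2 rises without overlap. Of these 12 rises and 12 falls, Rhpn1 (adjusted p = 0.126), Ddx60 (0.0647) and Il23a (0.063) did not pass with the libraries numbered 4 to 8 alone, where the log2 FCs of the 12 falls ran from -6.82 to -2.07.

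Genes stimulated by interferon formed the list with the largest share of risen members among lists of more than 10 genes. These genes, which encode antiviral and antigen-presentation proteins, respond to interferons through the JAK-STAT pathway. Of 46 tested, 31 rose (background 7.34%) and 3 fell, with a median log2 fold change of 0.60. Ifit1 lay from 13.5 to 29.1 CPM (median 21.6) in uneducated and at 91.9, 49.9, 49.4, 41.3 and 42.5 CPM in Ly49C/I+ libraries 4 to 8 (log2 FC 1.33, SE 0.23, adjusted p = 0.00124). Mx1 went from 26.2–44.8 CPM to 43.2–99.8 CPM (log2 FC 1.12, adjusted p = 0.000993), with library ranges that overlap, and Rtp4 from 29.1–55.4 CPM to 70.1–100.4 CPM (log2 FC 0.95, adjusted p = 0.00162), without overlap. Library 4 held the highest Ifit1 value.

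The 3 that fell were Ifitm1, Ifitm2 and Ifitm3, which encode membrane proteins that block virus entry. Ifitm1 went from 55.6–262 CPM in uneducated to 23.9, 16.4, 10.6, 30.7 and 8.26 CPM in Ly49C/I+ libraries 4 to 8 (log2 FC -2.76, SE 0.37, adjusted p = 0.000317). Ifitm2 (log2 FC -2.02, adjusted p = 0.000146) and Ifitm3 (log2 FC -1.18, adjusted p = 0.00377) fell without overlap too, although 48.5% of the 50-base stretches of Ifitm2 occur in other genes. The count of risen genes depended on the libraries. Without Ly49C/I+ library 4 it was 19, and with the libraries numbered 4 to 8 alone it was 13, while the 3 Ifitm genes fell in both. The effector cytokine Ifng, which encodes interferon gamma, stood at 110.3 ± 38.5 CPM in uneducated and 169 ± 87.2 CPM in Ly49C/I+ cells and did not pass (log2 FC 0.62, adjusted p = 0.123), and Il15 stood at 6.17 and 12 CPM (adjusted p = 0.131).

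The promoters of 2 risen members are shown because many members of the list hold a shared sequence. The interferon-stimulated response element (ISRE) was searched on both strands as GAAA, any 2 bases, then GAAA, in the 250 bases before each RefSeq start (GRCm38.p6). It was present in 2.98% of 32851 promoters and in 3.5% of 7410 tested genes with a promoter in the table. Of 33 tested members of the list with a promoter, 18 held it (54.5%), and of the 20 that rose, 13 did (65%). These 2 shares were not tested against each other. Ifit1 (chr19:34640639-34640888, plus strand) held 2 matches and Isg15, a ubiquitin-like modifier gene chosen after its value was seen (log2 fold change 0.81), held 3 overlapping matches (chr4:156200819-156201068, minus strand), all in capitals here. A match is a description of letters and not of a bound site.
Ifit1: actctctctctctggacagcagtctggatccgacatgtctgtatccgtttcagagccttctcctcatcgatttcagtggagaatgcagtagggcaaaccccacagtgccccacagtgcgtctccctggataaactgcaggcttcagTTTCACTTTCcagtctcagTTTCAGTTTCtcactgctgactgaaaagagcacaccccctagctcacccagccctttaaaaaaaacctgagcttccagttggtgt
Isg15: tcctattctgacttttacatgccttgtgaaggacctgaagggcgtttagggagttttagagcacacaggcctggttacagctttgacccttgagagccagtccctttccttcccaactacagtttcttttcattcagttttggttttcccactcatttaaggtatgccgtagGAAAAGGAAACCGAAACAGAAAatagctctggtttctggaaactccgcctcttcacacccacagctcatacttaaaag

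Of 21 genes of MHC class I and its loading tested, 8 rose (38.1%, background 7.34%). Another 2 fell (9.52%, near the background of 8.99%). H2-T23, the gene of Qa-1, the ligand of NKG2A, stood at 535 ± 54 CPM in uneducated and 728 ± 44.9 CPM in Ly49C/I+ cells without overlap (log2 FC 0.44, SE 0.08, adjusted p = 0.00135). H2-K1, which encodes the H-2K molecule bound by Ly49C and Ly49I, rose by 0.34 (adjusted p = 0.0176), H2-D1 by 0.27 (adjusted p = 0.0186) and the class I transactivator gene Nlrc5 by 1.06 (adjusted p = 0.00524). B2m, the common light chain, rose by 0.17 (adjusted p = 0.0461), a call that was lost in 10 of the 13 fits that left out 1 library. The chaperone genes Calr (log2 FC -0.76, adjusted p = 0.00139) and Pdia3 (log2 FC -0.53, adjusted p = 0.00456), which load class I molecules in the endoplasmic reticulum, fell. With offsets for GC content and gene length 12 genes rose, and with the libraries numbered 4 to 8 alone 3 rose and 2 fell.

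In the lists for glycolysis, the ER secretory pathway, ribosome biogenesis and the proteasome, the members that passed fell, with 1 exception. Of 21 glycolysis genes tested, 12 fell and none rose (background 8.99% lower), with a median log2 fold change of -0.61. Tpi1, the gene of triosephosphate isomerase, lay from 568 to 753 CPM (median 663) in uneducated and at 342, 445, 387, 375 and 428 CPM in Ly49C/I+ libraries 4 to 8 (log2 FC -0.74, SE 0.08, adjusted p = 8.53e-05). Ldha, which encodes a subunit of lactate dehydrogenase, went from 1847–2731 CPM to 1079.6–1485 CPM (log2 FC -0.80, SE 0.09, adjusted p = 0.000146), and Gapdh from 940.1–1265 CPM to 567–752 CPM (log2 FC -0.70, adjusted p = 0.000171). Every Ly49C/I+ library was below every uneducated library in these 3 genes, although 25.1% of the 50-base stretches of Gapdh occur in other genes. The fall was called for 10 to 13 genes when any 1 library was left out and for 10 with the libraries numbered 4 to 8 alone.

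Of 34 genes of the secretory pathway of the endoplasmic reticulum (ER), 20 fell and 1 rose, with a median of -0.44. Pdia6, a disulphide isomerase gene, lay from 797 to 1469 CPM (median 974) in uneducated and at 551, 606, 535, 581 and 552 CPM in Ly49C/I+ libraries (log2 FC -0.90, SE 0.12, adjusted p = 0.00033). Manf, a protein gene induced by ER stress, went from 240.3–391 CPM to 154–174 CPM (log2 FC -0.79, adjusted p = 0.000443) and Ssr2, part of the translocon, from 230.2–333 CPM to 147–184 CPM (log2 FC -0.72, adjusted p = 0.000612). None of the 3 overlapped between groups. The member that rose was Ddit3, which encodes the stress factor CHOP (log2 FC 0.58, adjusted p = 0.0446), a call lost in 10 of the 13 fits without 1 library. Falls numbered 17 to 22 in those fits and 15 with the libraries numbered 4 to 8 alone.

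The ER stress response element, searched on both strands of the same windows as CCAAT, any 9 bases, then CCACG, was in 0.113% of the 32851 promoters. It was in 8 of 28 tested members of the ER list with a promoter (28.6%) and in 6 of the 16 that fell (37.5%). The promoter of Hspa5, which encodes the ER chaperone BiP, is shown as an example chosen after its value was seen (log2 fold change -0.32, adjusted p = 0.0407), with its 1 match in capitals (chr2:34771840-34772089, plus strand, GRCm38.p6).
Hspa5: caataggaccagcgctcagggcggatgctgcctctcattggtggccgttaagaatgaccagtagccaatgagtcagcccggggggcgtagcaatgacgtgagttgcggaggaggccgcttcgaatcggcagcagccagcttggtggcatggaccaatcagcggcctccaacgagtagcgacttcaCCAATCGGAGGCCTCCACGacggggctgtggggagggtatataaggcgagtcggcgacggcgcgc

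Of 35 genes of ribosome biogenesis, MYC and polyamine synthesis, 19 fell and none rose (median -0.42). Srm, which encodes spermidine synthase, had one of the smallest adjusted p-values of any gene. It lay from 160.4 to 265 CPM (median 196) in uneducated and at 78, 102, 92, 92.1 and 91.8 CPM in Ly49C/I+ libraries, without overlap (log2 FC -1.15, SE 0.11, adjusted p = 3.06e-05), and its log2 fold change with the libraries numbered 4 to 8 alone was -1.09, adjusted p = 0.000211. Dkc1 (log2 FC -0.71, adjusted p = 0.00074) and Nolc1 (log2 FC -0.56, adjusted p = 0.00138), which encode nucleolar proteins, fell as well. Of 36 proteasome subunit genes, 19 fell and none rose, with Psma5 (log2 FC -0.65, adjusted p = 0.000642), Psma4 (log2 FC -0.55, adjusted p = 0.000329) and Psmb2 (log2 FC -0.46, adjusted p = 0.00138) having the smallest adjusted p-values. For Psma5, 50% of its 50-base stretches occur in other genes. Each of these 2 lists had 9 falls with the libraries numbered 4 to 8 alone.

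Cholesterol and fatty acid synthesis showed the same direction with 11 falls and 2 rises among 31 genes (median -0.42). Sqle (log2 FC -0.91, adjusted p = 0.00223) and Msmo1 (log2 FC -0.89, adjusted p = 0.00289), enzymes of sterol synthesis, and the fatty acid desaturase gene Scd2 (log2 FC -0.97, adjusted p = 0.00218) fell. The members that rose, Abca1 (log2 FC 1.24, adjusted p = 0.0426) and Abcg1 (log2 FC 0.59, adjusted p = 0.0386), encode transporters that carry cholesterol out of the cell rather than enzymes that make it. Their calls were lost in 9 and 11 of the 13 fits without 1 library, and 4 members fell with the libraries numbered 4 to 8 alone.

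Genes of the mitochondrion and of the ribosome itself differed by small amounts, and their counts moved with the processing. Of 25 TCA cycle genes 10 fell (median -0.32), led by Mdh2 (log2 FC -0.58, adjusted p = 0.0002) and Idh3a (log2 FC -0.44, adjusted p = 0.00233). Of 70 nuclear-encoded respiratory chain genes 16 fell (median -0.17), Atp5b among them (log2 FC -0.37, adjusted p = 0.000896). Of 79 cytosolic ribosomal protein genes 14 fell and 1 rose (median -0.14), with Rpl29 (log2 FC -0.41, adjusted p = 0.00252) and Rpl6 (log2 FC -0.32, adjusted p = 0.00417) lower and Rps27 (log2 FC 0.42, adjusted p = 0.00275) higher. With offsets for GC content and gene length the falls numbered 4, 7 and 3 and the rises 1, 4 and 3, so the ribosomal list had as many rises as falls. Without Ly49C/I+ library 4 the falls numbered 4, 8 and 5. Between the libraries numbered 4 to 8 the falls were 2, 4 and 3, and the 3 ribosomal falls (3.8%) were near the background of 3.24%. Of 7 mitochondrially encoded genes tested, mt-Co1, a cytochrome c oxidase subunit gene, rose (log2 FC 0.55, adjusted p = 0.0117). Its call was lost with the libraries numbered 4 to 8 alone (adjusted p = 0.0956) and in 1 fit over all 5 groups (adjusted p = 0.0955), and 51.1% of its 50-base stretches occur in other genes.

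**Figure D4:**
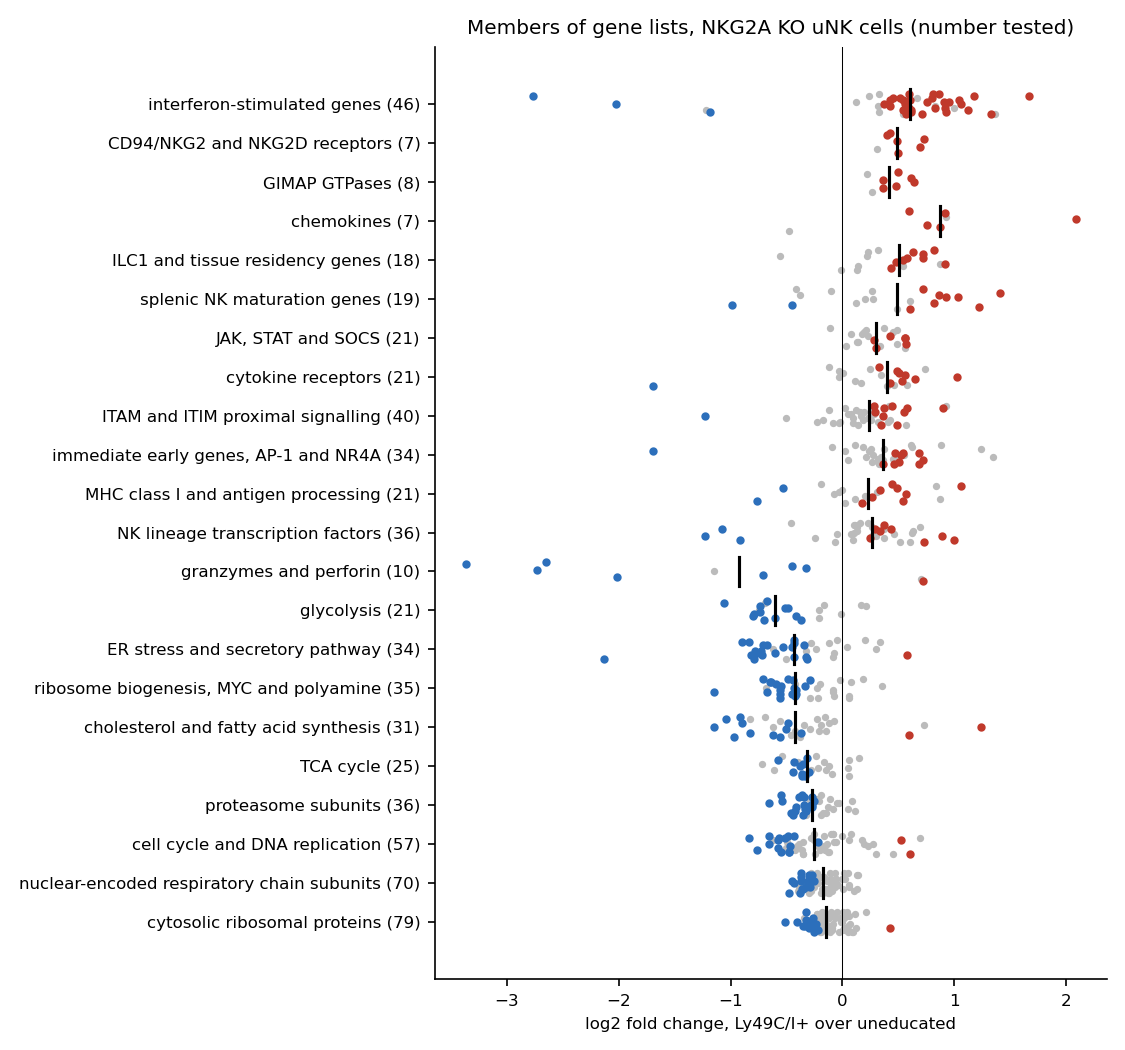
Log2 fold changes of the tested members of gene lists, 1 row per list, with red points for members that rose, blue for members that fell, grey for members that did not pass, and a bar at each list's median. The interferon-stimulated genes lie mostly to the right of 0 apart from 3 Ifitm genes, and the glycolysis and ER secretory genes mostly to the left.

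Of 57 cell cycle and DNA replication genes, 15 fell and 2 rose (median -0.25). Dut (log2 FC -0.57, adjusted p = 0.00199) and Mcm3 (log2 FC -0.56, adjusted p = 0.00454), which act in DNA replication, and Cdc20, which drives the exit from mitosis (log2 FC -0.66, adjusted p = 0.00353), fell. The cyclin D genes Ccnd2 (log2 FC 0.61, adjusted p = 0.0164) and Ccnd3 (log2 FC 0.52, adjusted p = 0.0367), which act before replication starts, rose, and they were 3.51% of the list against the background of 7.34%. Neither passed with the libraries numbered 4 to 8 alone (adjusted p = 0.0791 and 0.21), where no member of the list rose. Without uneducated library 3 there were 9 falls, with offsets for GC content and gene length 9, and with the libraries numbered 4 to 8 alone 4.

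Among secreted factors, the chemokine genes that passed rose, while the effector cytokine genes that passed went both ways. Of 7 chemokine genes tested, 5 rose (71.4%, background 7.34%) and none fell (median 0.87). Xcl1, whose product attracts XCR1+ dendritic cells, lay from 417 to 1139 CPM (median 809) in uneducated and at 2315, 1366, 1482, 1384 and 1259 CPM in Ly49C/I+ libraries 4 to 8 (log2 FC 0.91, SE 0.18, adjusted p = 0.00302). Every Ly49C/I+ library was above every uneducated one, and library 4 was the highest. Ccl5 stood at 1709 ± 440.1 CPM in uneducated and 2575 ± 329 CPM in Ly49C/I+ cells, with overlapping ranges (log2 FC 0.59, adjusted p = 0.0123), and did not pass with the libraries numbered 4 to 8 alone (log2 FC 0.44, adjusted p = 0.0925). Ccl9 went from 3.08–12.9 CPM to 11.9–55.7 CPM (log2 FC 2.09, adjusted p = 0.00198). Without Ly49C/I+ library 4, and with the libraries numbered 4 to 8 alone, 3 chemokine genes rose.

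Of 11 effector cytokine genes, 2 rose (18.2%, background 7.34%) and 2 fell (18.2%, background 8.99%). Spp1, which encodes osteopontin, an abundant secreted protein of the uterus in pregnancy, stood at 5713 ± 1588 CPM in uneducated and 2591 ± 842 CPM in Ly49C/I+ cells (log2 FC -1.14, SE 0.23, adjusted p = 0.00333). Ly49C/I+ library 4 was the lowest of the 13 for Spp1, and the ranges of the groups overlapped. The lymphotoxin gene Ltb (log2 FC 0.81, adjusted p = 0.0331) and the macrophage growth factor gene Csf1 (log2 FC 1.06, adjusted p = 0.041) rose and Tnfsf11 (log2 FC -1.18, adjusted p = 0.0227) fell. With the libraries numbered 4 to 8 alone Spp1 was the 1 member of the list that passed (9.09% fallen, background 3.24%). Of 7 uterine growth and vascular factor genes tested, 1 fell (14.3%, background 8.99%) and none rose. It was Pdgfa (log2 FC -0.82, adjusted p = 0.0199), and this call was lost when Ly49C/I+ library 4 was left out and with the libraries numbered 4 to 8 alone (adjusted p = 0.158). None of 14 TGF-beta receptor and SMAD genes passed by edgeR's quasi-likelihood test (4 had an unadjusted p under 0.05, and DESeq2 called none), and the smallest adjusted p was that of Smad4 (log2 FC 0.33, adjusted p = 0.0829).

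Among genes tied to NK maturation and transcription, most of those that passed rose. Of 19 splenic maturation genes, 8 rose and 2 fell. Besides Ly6c2, these included Cx3cr1, a chemokine receptor gene of mature NK cells (11.1–30.2 CPM in uneducated and 32.9–58.8 CPM in Ly49C/I+ libraries, log2 FC 1.22, adjusted p = 0.00308), and S1pr5, which guides NK cells out of tissue (log2 FC 1.03, adjusted p = 0.00505). Those that fell were Thy1 (log2 FC -0.45, adjusted p = 0.00995) and S1pr1 (log2 FC -0.98, adjusted p = 0.048), the latter called in only 2 of the 13 fits without 1 library. Of 18 ILC1 and residency genes, 9 rose and none fell, among them Rgs1 (log2 FC 0.54, adjusted p = 0.00149), a regulator of G protein signalling, and the death ligand gene Tnfsf10 (log2 FC 0.72, adjusted p = 0.00302). With the libraries numbered 4 to 8 alone, 3 maturation and 5 residency genes rose, and with offsets for GC content and gene length 6 residency genes did. Ccr7, a lymph node homing receptor gene, fell from 16.6–61 CPM to 4.22–6.77 CPM (log2 FC -2.16, SE 0.33, adjusted p = 0.000642).

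Of 36 NK lineage transcription factor genes, 8 rose (22.2%, background 7.34%) and 3 fell (8.33%, background 8.99%). Tbx21, which encodes T-bet, stood at 902 ± 129 CPM in uneducated and 1220.0 ± 68.4 CPM in Ly49C/I+ cells without overlap (log2 FC 0.44, SE 0.09, adjusted p = 0.00511). Klf3 (log2 FC 1.00, adjusted p = 0.0145) and Kmt2a (log2 FC 0.89, adjusted p = 0.0161) rose too, while Lef1 (log2 FC -0.92, adjusted p = 0.00296) and Myb (log2 FC -1.08, adjusted p = 0.012), factors of immature lymphocytes, and Rora (log2 FC -1.23, adjusted p = 0.0457) fell. Without Ly49C/I+ library 5, the library that stood apart, 3 of these genes rose. With the libraries numbered 4 to 8 alone, 1 rose (2.78% of the 36, background 2.16%) and 1 fell (2.78%, background 3.24%), which is near the background.

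Among cytokine receptor and signalling genes, most of those that passed over all 13 libraries rose, and with the libraries numbered 4 to 8 alone the counts were near the background for some lists. Of 21 cytokine receptor genes 8 rose, Il21r (log2 FC 0.65, adjusted p = 0.00395) and Il4ra (log2 FC 0.51, adjusted p = 0.00684) among them, and the 1 that fell was Il2ra, the high-affinity IL-2 receptor chain gene, from 19.8–87 CPM to 3.63–17.5 CPM (log2 FC -1.69, SE 0.36, adjusted p = 0.00505). Of 21 JAK, STAT and SOCS genes 6 rose and none fell, with Stat4 (log2 FC 0.56, adjusted p = 0.00243) and Jak1 (log2 FC 0.30, adjusted p = 0.00368) free of overlap. Of 40 genes of ITAM and ITIM signalling 10 rose, with Lck (log2 FC 0.49, adjusted p = 0.00475) and the PI3K genes Pik3cd (log2 FC 0.37, adjusted p = 0.00643) and Pik3r1 (log2 FC 0.36, adjusted p = 0.00777), and the adaptor gene Sh2d1b2, which encodes EAT-2B, fell (log2 FC -1.22, adjusted p = 0.00607). Of 34 immediate early genes 9 rose, among them Tnfaip3 (log2 FC 0.54, adjusted p = 0.0021), Zfp36l2 (log2 FC 0.46, adjusted p = 0.00999) and Junb (log2 FC 0.47, adjusted p = 0.0186), and Ier3 fell (log2 FC -1.69, adjusted p = 0.00274). The risen counts with the libraries numbered 4 to 8 alone were 1 for cytokine receptors, 2 for JAK, STAT and SOCS, 1 for ITAM and ITIM signalling and 1 for immediate early genes. The shares of risen ITAM and ITIM signalling genes (2.5%) and immediate early genes (2.94%) in that comparison were near its background of 2.16%. Immediate early genes gave 2 rises without Ly49C/I+ library 4 and at most 18 when another library was left out.

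The GTPases of the GIMAP family, which act in lymphocyte survival, rose in 6 of 8 cases, with Gimap4 at 828 ± 102 CPM in uneducated and 1151 ± 119.9 CPM in Ly49C/I+ cells without overlap (log2 FC 0.47, adjusted p = 0.00259). Of 11 BCL2 family genes 1 rose (9.09%, near the background of 7.34%), Bcl2 itself (log2 FC 0.56, adjusted p = 0.0343), a call lost in 9 of the 13 fits without 1 library and with the libraries numbered 4 to 8 alone (adjusted p = 0.15). Of 23 calcium signalling genes 5 rose, Atp2b4 among them (log2 FC 0.61, adjusted p = 0.011), and 3 fell, among them Calm3 (log2 FC -0.61, adjusted p = 0.00498) and Atp2a2 (log2 FC -0.52, adjusted p = 0.0379). Of 25 granule and lysosome genes 7 rose (28%, background 7.34%), including Ctsw (log2 FC 0.55, adjusted p = 0.000642), the death ligand gene Fasl (log2 FC 0.71, adjusted p = 0.00097) and Nkg7 (log2 FC 0.37, adjusted p = 0.00277). A further 3 fell (12%, near the background of 8.99%), Gusb (log2 FC -0.67, adjusted p = 0.00259), Cd63 (log2 FC -2.01, adjusted p = 0.0112) and Rab27a (log2 FC -0.40, adjusted p = 0.0217). Of 22 integrin and adhesion genes 9 rose, Itgax (log2 FC 0.67, adjusted p = 0.000888) and Adgre5 (log2 FC 0.66, adjusted p = 0.00829) among them, and Itgb3 (log2 FC -1.06, adjusted p = 0.0289) and Adgrg3 (log2 FC -0.81, adjusted p = 0.0264) fell. Itgam also rose (log2 FC 0.87, adjusted p = 0.00948), but 66.3% of its 50-base stretches lie in an overlapping gene model on the same strand. Of 17 annexin, S100 and galectin genes 7 fell and none rose, led by Lgals3 (log2 FC -0.98, adjusted p = 0.000549), Anxa3 and Anxa5 (log2 FC -0.69, adjusted p = 0.0037). Ms4a4b (log2 FC 0.47, adjusted p = 0.00475) and Ms4a6b (log2 FC 0.70, adjusted p = 0.00219) of the MS4A family rose, but with offsets for GC content and gene length Ms4a4b had a log2 FC of 0.24 (adjusted p = 0.16) and did not pass. The counts between the libraries numbered 4 to 8 alone were 4 risen GIMAP genes, 0 risen and 2 fallen calcium genes, 5 risen and 1 fallen granule genes, 2 risen integrin and adhesion genes and 3 fallen annexin, S100 and galectin genes. The 1 fallen granule gene was 4% of its list, near the background of 3.24% in that comparison. Actb, which encodes beta-actin, fell by 0.25 (adjusted p = 0.0297), a call lost with the libraries numbered 4 to 8 alone (adjusted p = 0.0837).

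Markers of other cells that the gate could hold were examined next. Of 9 myeloid markers tested out of 20, the MHC class II genes H2-Ab1, H2-Aa, H2-Eb1 and Cd74 fell and Itgax rose. H2-Ab1 went from 56.9–252 CPM in uneducated to 7.73–46.2 CPM in Ly49C/I+ libraries (log2 FC -2.59, SE 0.43, adjusted p = 0.000985), and Cd74, the invariant chain gene, fell without overlap (log2 FC -2.08, adjusted p = 0.0029). The summed level of the 20 markers was 1056 to 1851 CPM in uneducated and 1049 to 1554 CPM in Ly49C/I+ libraries, most of it from Ccr2 and Itgax, which NK cells express too. The macrophage genes Csf1r (3.35 and 1.15 CPM, uneducated and Ly49C/I+) and Adgre1 (0.458 and 1.51 CPM) were below the filter. Neither of the 2 granulocyte markers tested out of 14 passed, though 1 of them, Cpa3, had an unadjusted p under 0.05 and was called lower by DESeq2 (log2 FC -1.65, adjusted p = 0.0722 by edgeR's quasi-likelihood test; summed level 41.5 to 88.7 and 16.1 to 37.9 CPM), and Mpo, which was not tested, stood at 13.2 and 0.43 CPM. The part of such cells in the lower levels of MHC class II, Ctsg and Mcpt8 was not tested, and in bulk samples fewer cells of a type and less RNA per cell cannot be told apart.

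Of 8 T cell markers tested out of 17, 1 rose (12.5%, background 7.34%) and none fell. It was Trbc1 (log2 FC 0.52, adjusted p = 0.00112), 40.5% of whose 50-base stretches occur in other genes. Cd4 and Cd8a had no read in any library (summed level 716.8 to 928.2 and 908.0 to 987.1 CPM). These 2 were the only members without a read, and much of the summed level came from members not named here. Neither of 2 B cell markers tested out of 11 passed (0 at an unadjusted p under 0.05 and 0 by DESeq2), Pax5 had no read, and Ighm stood at 543 ± 91.2 CPM in uneducated and 520.2 ± 78.4 CPM in Ly49C/I+ cells (summed level 373.1 to 679.6 and 427.6 to 614.7 CPM). Of 6 stromal, endothelial, epithelial and trophoblast markers tested out of 27, 1 fell (16.7%, background 8.99%) and none rose. It was Epcam (log2 FC -1.31, adjusted p = 0.00231). Pdgfra, Pdgfrb, Cdh5, Emcn and Tpbpa had no read in any library (summed level 569.3 to 1365 and 545.6 to 1523 CPM). These 5 were the only members without a read. Most of the summed level came from tested members not named here, so the genes without a read do not show that RNA of such cells was absent. Of 15 NK identity genes, 8 rose and 2 fell, all of which are named above apart from Klrk1, the NKG2D gene (log2 FC 0.42, adjusted p = 0.0218).

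The contrast with the same labels in WT mice, 6 Ly49C/I+ against 9 uneducated libraries, served to see where the NKG2A KO result differed. In NKG2A KO mice the genotype removes NKG2A, so the gate cannot use NKG2A to set apart the cells that would carry it. In WT mice NKG2A+ cells were sorted away. The groups of the 2 genotypes may therefore hold different cells, and the part of this in the comparison was not tested. The 2 contrasts share no library. In WT, 855 of 9292 genes passed (9.2%), 418 higher (4.5%) and 437 lower (4.7%). Of the 1519 genes called in NKG2A KO cells 1507 were tested in WT, and 1437 of these had the same sign (95.4%), against 6698 of all 9128 genes tested in both (73.4%). In WT 521 were called in the same direction and none in the opposite one, which is 34.3% of the NKG2A KO calls and 60.9% of the WT calls. Across the 9128 genes, which are not independent replicates, the log2 fold changes of the 2 contrasts were related with r = 0.696 (Pearson) and rho = 0.627 (Spearman), given as a description.

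Kcnj8 and Gzmd passed in WT too. Kcnj8 went from 5.35 ± 5.21 to 31.3 ± 12.4 CPM in WT (SD, n = 9 and 6; log2 fold change 2.54, adjusted p = 0.01), and Gzmd had a log2 fold change of -2.09, adjusted p = 0.00109. The log2 fold changes of Gzma (0.47, adjusted p = 0.183) and Cd226 (0.46, adjusted p = 0.448) did not pass in WT. The difference between the effects, tested as an interaction in 1 fit over the 4 groups, was called for none of 9322 genes by edgeR's quasi-likelihood test, with 407 at an unadjusted p under 0.05 and a smallest adjusted p of 0.498. The likelihood ratio test and DESeq2 each called 1 gene, Elmod2, a gene for a regulator of ARF-type GTPases. Elmod2 rose in NKG2A KO (log2 FC 1.27, adjusted p = 0.0202), a call lost without Ly49C/I+ library 7 and with the libraries numbered 4 to 8 alone (adjusted p = 0.0543). It had a log2 fold change of -0.98, adjusted p = 0.0814 in WT, a difference of 2.26 (SE 0.49, unadjusted p = 7.47e-05 by the quasi-likelihood test). The other genes with the smallest unadjusted p of the difference were Zfr, with log2 fold changes of 0.13 in NKG2A KO and -0.52 in WT, and Srgn, with 0.27 and -0.14. The absence of calls does not show that the effects are equal.

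**Figure D5:**
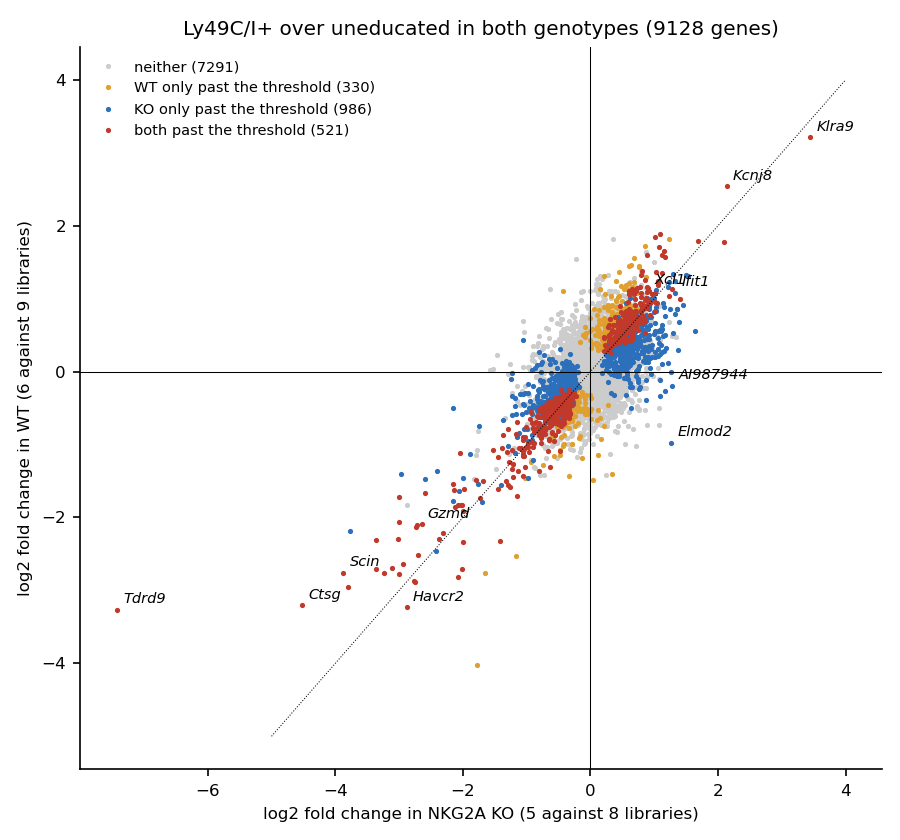
Log2 fold change of Ly49C/I+ over uneducated cells in NKG2A KO (horizontal) against the same in WT (vertical), 1 point per gene tested in both. Most genes called in both lie along the rising diagonal, none lies in an opposite quadrant, and Elmod2 lies at 1.27 in NKG2A KO and -0.98 in WT.

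Set on one scale over all 5 groups, Kcnj8 stood at 5.38 ± 5.23 CPM in WT uneducated, 18.6 ± 6.24 in NKG2A KO uneducated, 29.5 ± 9.79 in WT NKG2A+, 31.4 ± 12.4 in WT Ly49C/I+ and 82.8 ± 13.7 CPM in NKG2A KO Ly49C/I+ cells (SD, n = 9, 8, 9, 6 and 5). The lowest NKG2A KO Ly49C/I+ library (64.2 CPM) was above the highest WT library (53.1 CPM). WT NKG2A+ and WT Ly49C/I+ cells differed by less than their SDs. The levels were not tested between genotypes, whose NKG2A-negative groups may hold different cells. Ly49C/I+ exceeded uneducated cells in both genotypes, and the difference of the log2 fold changes, NKG2A KO minus WT, was -0.39 (SE 0.63, unadjusted p = 0.542).

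Of the 164 genes chosen for naming that passed, 132 passed in every fit that left out 1 library, and 82 in all 23 alternatives. The call of Rab27a was lost without Ly49C/I+ library 7, that of Kmt2a without library 5 and that of Junb without library 4. Leaving out either of 2 Ly49C/I+ libraries ended the calls of Klra8 (7 or 8) and of Atp2a3, a calcium pump gene (4 or 5). For Ncr1 and Tnfsf11 it was any of Ly49C/I+ libraries 4, 6 and 7, and for Ppp3r1, a calcineurin subunit gene, any of 4, 7 and 8. The calls of Cish and Actb were lost in 4 of the 13 fits, those of Prf1, Fcgr3, Srgn, Itgb3 and Adgrg3 in 5, of Ltb and Rhpn1 in 6, of Klra5, Csf1, Ccnd3 and Atp2a2 in 8, of Rora in 9 and of Gzmb in 10, with libraries of both groups among those whose absence ended the call.

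With the libraries numbered 4 to 8 alone 54 of the 164 lost the call (adjusted p from 0.0503 to 0.257). Besides the genes for which this is given above, those described here were Klra8, Klrb1c, Fcgr3, Prf1, B2m, H2-K1 and H2-D1 among receptor, effector and class I genes, Ltb, Csf1, Tnfsf11, Il4ra, Cish, Klf3, Kmt2a, Myb, Rora, Thy1 and S1pr1 among cytokine, maturation and transcription genes, Atp2b4, Atp2a3, Ppp3r1, Atp2a2, Itgam, Adgrg3, Itgb3, Pik3cd, Pik3r1, Sh2d1b2, Zfp36l2 and Junb among signalling and adhesion genes, and Cd63, Rab27a, Ddit3, Abca1, Abcg1 and Srgn. When the library number entered the fit of the libraries numbered 4 to 8 as a block, 28 of the 164 lost the call (adjusted p from 0.0506 to 0.151). Havcr2, Il23a, Ccl5, Klra8, Klrb1c, H2-K1, H2-D1, Itgam and Myb were not among these. Mcam and Ier3 were, though both passed without the block. With offsets for GC content and gene length 15 lost the call (adjusted p from 0.0502 to 0.323), among them Ptprc, Fcgr3, Prf1, Gzmb, Actb, Csf1, Rgs1, S1pr1, Ccnd3, Rab27a, Atp2a2, Rpl6, Abca1 and Ms4a4b. In 1 fit over all 5 groups 32 did (adjusted p from 0.0507 to 0.446), among them Klra3, Kcnn4, Cx3cr1, Tnfsf10, Thy1, Arhgef4, Ddx60, Rhpn1, Gm14125, Cd63, Pik3cd, Ier3, Ifitm3 and H2-Aa.

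Read against the background of 8.99% lower, the shares of fallen members were close to it or under it for the other NK receptors (8%), calcium signalling (13%), granule and lysosome genes (12%), cytokine receptors (4.76%), splenic maturation (10.5%), integrins (9.09%), ITAM and ITIM signalling (2.5%), immediate early genes (2.94%), interferon-stimulated genes (6.52%), MHC class I (9.52%) and NK identity genes (13.3%). Against 7.34% higher, the same held for the rises among granzymes (10%), cholesterol and fatty acid synthesis (6.45%), the ER list (2.94%) and ribosomal proteins (1.27%). The kit keeps no strand, so for genes that overlap a gene on the opposite strand, such as Manf, Ctsw and Mt2, reads of the 2 cannot be told apart.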

How the data were processed

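Sorted uNK cells were profiled by bulk RNA-seq after SMART-Seq v4 amplification and Nextera XT library preparation, which keep neither strand nor molecular identifiers, so all error estimates rest on the spread between libraries. The authors deposited raw read counts per Ensembl gene, made from reads trimmed with Trim Galore 0.5.0 and aligned with STAR 2.7.1 to GRCm38, per the submitters' processing notes. The program that counted reads and its strand setting are not stated there. No normalisation was applied to the deposited counts, and summary rows that name no gene (2.69% to 5.67% of reads outside genes) were left out. Such rows also held alignments that were not unique (11.29% to 12.63% in the 13 libraries) and ambiguous reads (4.31% to 4.6%).

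Groups were taken from the sample labels. Gene names and positions came from GENCODE (GRCm38), promoters from RefSeq (GRCm38.p6). Genes were kept where 0.5 or more of the compared libraries reached 5 CPM, scaled by TMM and tested with edgeR 4.0.16 (quasi-likelihood, R 4.3.3) without covariates, adjusted by Benjamini-Hochberg with a threshold of 0.05. DESeq2 1.42.0, other scalings and filters, GC content and length offsets (in place of the authors' quantile correction), a replicate block, the libraries numbered 4 to 8 alone and each library left out were tried as alternatives. The list counts under left-out libraries, GC offsets, DESeq2 and the libraries numbered 4 to 8, and the Kcnj8 permutation with those libraries, were added after seeing the data. The fit was tested on simulated data.

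The compared groups and gene lists were chosen with earlier results of these data known. Named genes were those of the sort, the channel genes and the uNK genes that the study discusses, the 12 largest rises and falls without overlap, up to 3 called members per list and direction with the smallest adjusted p (or the smallest where none passed), the 3 smallest p of the interaction, and the 8 most abundant called genes. No pair of libraries within a group agreed within sampling noise (chi-square per degree of freedom at least 23.7). A few items that the rule would name are not reported here.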

Additional observations from a re-analysis of the deposited data

Results flagged for a closer look

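In 27 of 356 sets of values examined, each 1 gene or library measure within 1 group, a single library lay far from the others of its group by Dixon's 95% limit. Chance alone marks about 1 in 20 such sets.

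Ly49C/I+ library 4 accounted for 7 of them. It was the highest of its group for Cd226 (121.76 CPM, the others 57.5 to 64.8), Xcl1 (2314.6 CPM, the others 1259 to 1482), Ifit1 (91.928 CPM, the others 41.4 to 49.9), Klrb1b (366.41 CPM, the others 238.7 to 257.8) and Cish (198.64 CPM, the others 95.9 to 124.4). It was the lowest for Spp1 (1135.3 CPM, the others 2718 to 3228) and had no read of Anxa3 (0 CPM, the others 3.14 to 3.52). For all of these genes the value of library 4 lies further from the uneducated libraries than those of the other 4.

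Uneducated library 3 also accounted for 7. It was the highest of its group for Ccr7 (60.993 CPM, the others 16.6 to 22.8), Il2ra (87.038 CPM, the others 19.8 to 51.1), Myb (77.474 CPM, the others 33.0 to 49.0), Ifitm1 (262.14 CPM, the others 55.6 to 150.8), Ifitm3 (58.707 CPM, the others 27.7 to 37.8), Prf1 (4156.4 CPM, the others 2296 to 3128) and Klra5 (63.579 CPM, the others 27.6 to 43.7). Except for Klra5, these genes fell in Ly49C/I+ cells.

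Uneducated library 4 accounted for 6. It had the most genes with a read (17006) and the largest share of reads outside genes (5.674%), and it was the highest of its group for Cish (125.74 CPM, the others 66.4 to 93.2), Nlrc5 (127.71 CPM, the others 37.8 to 76.6) and Abcg1 (45.032 CPM, the others 18.7 to 28.1) and the lowest for Ptprc (1317 CPM, the others 1448 to 1555).

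The other marks were spread over 5 libraries. Uneducated library 1 had the most reads on genes (18875033) and uneducated library 7 the most Arhgef4 (8.4891 CPM, the others 3.65 to 5.92). Ly49C/I+ library 5 had the most Pik3r1 (409.79 CPM, the others 328.1 to 350.2). Ly49C/I+ library 6 was the only one of its group with reads of Tdrd9 (0.75954 CPM) and had the most Cd63 (5.2584 CPM, the others 0.325 to 1.57). Ly49C/I+ library 8 had the least Ctsw (1851.5 CPM, the others 2088 to 2178) and the least Il2ra (3.635 CPM, the others 14.9 to 17.5). Without Ly49C/I+ library 6 the log2 fold change of Cd63 was -2.79 against -2.01 with it.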

How the results depend on the processing

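The count of 1519 genes that differed between Ly49C/I+ and uneducated NKG2A KO cells stayed within 1.5 times under the likelihood ratio test (1750), DESeq2 (1879), RLE factors (1507), filterByExpr (1353), GC content and length offsets (1351, of which 52% were higher against 45%) and 1 fit over all 5 groups (1108), and 789 genes were called in all of these. It was 889 with no filter on low counts, where 24592 genes were tested, and 508 with the libraries numbered 4 to 8 in both groups, where fewer libraries entered. With 1 library left out it ranged from 967 to 1763. With the library number as a replicate block the count was 748, against 508 without the block in the same libraries, and 565 with the block and GC content and length offsets together. Same-numbered libraries deviated together with correlations of 0.0254 to 0.192, against -0.076 to 0.0145 for libraries with other numbers. All 5 of 5 numbers correlated best with their own number, a hint of pairing from the data and not from the design. The same-number values were not all over the limit of 0.1, so the main test did not take the numbers as pairs. A pairing that this test leaves out remains possible.

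The 521 genes called in both genotypes became 240 with no filter on low counts, 519 with RLE factors and 703 with the likelihood ratio test. The interaction count of 0 became 1 with the likelihood ratio test and 1 with DESeq2, and was 0 with RLE factors, with no filter and in every fit without 1 library. The Kcnj8 difference of 2.131 was 1.998 to 2.239 with 1 library left out, 1.911 and 2.19 with pseudocounts of 5 and 0.1, and 1.871 with the libraries numbered 4 to 8.

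For the named genes, 3588 of 4002 values kept their direction and side of the threshold, 404 lost the call, 7 gained it and 3 reversed. The reversals were all of Ighm, not called at -0.06, which was 0.09731 with GC content and length offsets, 0.02153 with these and the block, and -0.1287 to 0.01145 with 1 library left out. The cause was not tested for any of these. Genes below 5 CPM, such as the K-ATP partner subunits and Klrc1, were below what the filter allows to be tested.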
